A study of Sus scrofa with 22 samples.

Results

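The genes described here are the extracellular, membrane-bound and lysosomal proteases of the porcine endometrium together with their inhibitors and receptors. They were chosen by symbol and comprise ADAM, ADAMTS and ADAMTSL genes, matrix metalloproteinases (MMP), tissue inhibitors of metalloproteinases (TIMP), cathepsins (CTS), cystatins (CST3, CST6, CSTB), the plasminogen activation genes PLAU, PLAUR and PLAT, and the membrane peptidases MME, ANPEP and DPP4. Of 86 genes with such symbols in the NCBI annotation of the pig genome Sscrofa11.1, 61 were listed in at least 1 of the 3 count tables, among 12401 listed genes in all. LE had 55 of these, GE had 58 and S had 48, with 47 shared by all 3 tables. The 61 genes were 9 ADAM, 17 ADAMTS, 3 ADAMTSL, 8 MMP and 4 TIMP genes, 11 cathepsins, 3 cystatins, 3 membrane peptidases and 3 plasminogen activation genes.

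The samples were luminal (LE) and glandular epithelium (GE) and the stroma (S) beneath them, cut from endometrial sections of gilts by laser capture microdissection on Day 12. All animals were prepuberal gilts, crossbreeds of German Landrace and Piétrain, whose ovulation had been synchronised with PMSG and hCG. The pregnant group was inseminated with semen and the control group, which was cyclic, with the supernatant of semen only. LE and GE had 4 libraries per group and S had 3 per group, each library from another gilt, and LE, GE and S libraries of the same number came from the same gilt. Areas were picked by morphology after staining, the stromal areas held immune cells besides fibroblasts, and each library was made from a very small amount of RNA.

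The totals over listed genes ranged from 893912 to 4020796 counts per library. Levels are given as CPM, counts relative to the effective size of the library, and can be compared across the 22 libraries. As the lower limit of what could be told from 0, 3 counts corresponded to 0.703 to 3.61 CPM.

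The fibroblast and epithelial markers did not separate the libraries labelled S from LE. The summed CPM of 9 fibroblast markers was 5398 to 12527 in 5 of the 6 S libraries, against 9788 to 24398 in LE, and COL1A1 had a median of 2117 CPM in S and 3600 CPM in LE. The summed epithelial markers had a median of 3187 CPM in S and 3584 CPM in LE, and EPCAM reached 680 CPM in S. None of the 9 fibroblast and 10 epithelial markers passed the test between S and LE (edgeR, FDR below 0.01). As only 1.69% of all 10643 genes passed it, this count alone says little about the markers. The summed fibroblast markers had a median of 14080 CPM in GE, 9277 CPM in S and 14698 CPM in LE. The median of the summed epithelial markers in GE was 2537 CPM, below those of S and LE. FOXA2, a factor of uterine glands, was listed in GE and in S, at 11.3 to 133 CPM in S. The pregnant S library of gilt 01 stood apart from the other S libraries, with 64660 CPM of fibroblast markers and 1257 CPM of epithelial markers. In the same way, the control GE library of gilt 02 had 47623 CPM of fibroblast and 843 CPM of epithelial markers, the pregnant GE library of gilt 01 had 32159 CPM of fibroblast markers, and the pregnant LE library of gilt 01 had 24398 CPM of fibroblast and 5126 CPM of smooth muscle markers. These 4 libraries are referred to as fibroblast-rich, and S is used below as the name of a label. Markers of lymphatic endothelium had 4 of 6 genes listed in S, 1 in LE and none in GE. Their summed level was 5.2 to 7.8 CPM in control S and 27.6, 90.1 and 241 CPM in pregnant S, the highest in gilt 01, against 3.9 to 19.3 CPM for the single gene listed in LE, and LYVE1 and MMRN1 were called higher in pregnant than in control S. Their part in the results for S was not tested. The trophoblast marker list had 0 of 9 genes in any table, so that conceptus RNA could not be followed with it.

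**Figure D1:**
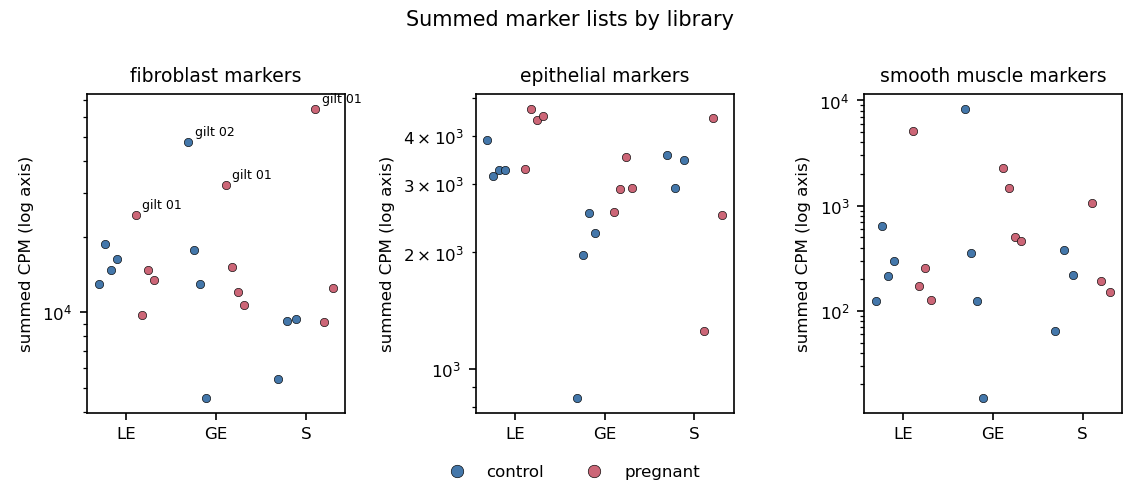
Summed CPM of the fibroblast, epithelial and smooth muscle marker lists in each library on log axes, with 1 point per library and control and pregnant libraries side by side in LE, GE and S. The 4 labelled libraries, of gilt 01 and gilt 02, have the highest fibroblast sums of their cell types, and the other 5 S libraries lie within or below the range of LE.

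Proteases of the ADAM family cut the outer parts of membrane proteins and so release growth factors and cytokines, ADAMTS proteases are secreted and cleave proteoglycans and procollagens, and MMPs degrade collagens and other matrix proteins. TIMPs bind and block metalloproteases. Cathepsins degrade proteins mainly in lysosomes, and those that are cysteine proteases are blocked by cystatins when they escape. Plasmin formation is started by PLAU and PLAT, with PLAUR holding PLAU at the cell surface. In pigs the conceptus stays outside the luminal epithelium and elongates rapidly around this stage, while cathepsins and protease inhibitors are well-known components of the uterine secretions.

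In LE, 9 of the 55 listed genes were DE in pregnant against control gilts (edgeR quasi-likelihood test, FDR below 0.01), and all 9 were higher in pregnant LE. They were ADAMTS20, MMP8, ADAM9, ADAM17, TIMP1, TIMP2, CTSC, CTSV and PLAUR. Of all 11415 genes tested in LE, 6.33% were called higher and 3.71% lower, and 0 of the 55 genes were called lower (4 were lower at an unadjusted p below 0.05, and the Wald test of DESeq2 called ANPEP). In such bulk RNA fewer cells of a type and less RNA per cell cannot be told apart. The median log2 FC was 0.22 over the 55 genes and 0.01 over all genes, with 37 of the 55 above 0, and without gilt 01 it was 0.03 with 29 above 0. Of the epithelial markers, 3 of 10 were called higher (CDH1, CLDN4, ELF3) and 3 lower (KRT7, KRT8, KRT19) in pregnant LE, and 1 of 9 fibroblast markers (FBN1) was called higher, and their part in the results for LE was not tested. By role, 2 of 8 ADAM, 1 of 14 ADAMTS, 1 of 7 MMP, 2 of 4 TIMP, 2 of 11 cathepsin and 1 of 3 plasminogen activation genes were called, and none of the 3 cystatins, 3 membrane peptidases and 2 ADAMTSL genes. All pregnant LE libraries lay above all control LE libraries for 11 of the 55 genes, compared with 14.1% of all genes, and these were the 9 called genes with CTSS and CTSH. All pregnant LE libraries lay below all control LE libraries for 2 genes, ADAM22 and ANPEP, compared with 12.6% of all genes.

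ADAMTS20, a secreted protease known for cleaving versican, showed the largest difference. It had 1.88, 4.35, 7.06 and 6.56 CPM in the control LE libraries and 982, 925, 968 and 217 CPM in the pregnant ones. The control libraries held 5, 16, 20 and 28 counts, the lowest of them near the limit of 3 counts, and the groups did not overlap. The log2 FC was 7.24 (SE 0.59, FDR 6.1e-05, n = 4 per group, edgeR), a 151-fold difference. The gene (Gene ID 100049661) lies on the minus strand of chr5:74502098-74672703.

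MMP8, the collagenase first described in neutrophils, had 61.3, 168, 52.6 and 241 CPM in control LE and 1186, 905, 2981 and 3293 CPM in pregnant LE. The lowest pregnant library was above the highest control library, and the log2 FC was 3.99 (SE 0.62, FDR 0.0016, edgeR). The summed level of the 6 listed leukocyte markers of 15 was 258 to 519 CPM in control and 224 to 402 CPM in pregnant LE, and 0 of the 6 were called. Which cells held the MMP8 RNA was not tested. On the annotation used, MMP8 (Gene ID 100523811) lies at chr9:33384034-33397637 on the minus strand.

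Of the membrane sheddases, ADAM9 had 106, 93.1, 79.0 and 115 CPM in control LE and 204, 190, 291 and 207 CPM in pregnant LE (log2 FC 1.17, SE 0.19, FDR 0.0022, edgeR). ADAM17, which releases TNF and ligands of the EGF receptor, had 48.1, 58.0, 45.2 and 55.0 CPM in control LE and 84.3, 102.5, 158 and 113 CPM in pregnant LE (log2 FC 1.15, SE 0.21, FDR 0.0038, edgeR). Neither gene overlapped between the groups. ADAM10, the other main sheddase and the ADAM gene with the highest CPM per kb of exon in each cell type, had 108 ± 5.54 CPM in control and 117 ± 19.5 CPM in pregnant LE (SD, n = 4) and was not called.

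Both TIMPs that were called are secreted inhibitors with a wide range of targets. TIMP1 had 21.8, 13.3, 14.1 and 22.2 CPM in control LE and 78.3, 45.7, 92.3 and 92.5 CPM in pregnant LE, with a log2 FC of 2.11 (SE 0.28, FDR 0.00074, edgeR). TIMP2, which also takes part in the activation of MMP2 by MMP14, had 1310, 880, 874 and 979 CPM in control LE and 2409, 2037, 2422 and 1739 CPM in pregnant LE, with a log2 FC of 1.08 (SE 0.20, FDR 0.0042, edgeR). For both genes every pregnant library was above every control library. TIMP2 was not called in the voom fit of limma, which took the gilt as a random effect (log2 FC 1.10). MMP2 and MMP14 themselves had log2 FCs of 0.08 (SE 0.28) and 0.13 (SE 0.23) in LE and were not called, and nor were TIMP3 (0.47, SE 0.40) and TIMP4 (−0.45, SE 0.56).

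Of the cathepsins, CTSC, the dipeptidyl peptidase that activates granule serine proteases, had 146, 101.5, 76.2 and 176 CPM in control LE and 1139, 724, 433 and 338 CPM in pregnant LE (log2 FC 2.38, SE 0.40, FDR 0.0025, edgeR). CTSV had 74.8, 81.1, 84.3 and 86.4 CPM in control LE and 157, 185, 196 and 228 CPM in pregnant LE, with little spread within the groups (log2 FC 1.23, SE 0.16, FDR 0.0007, edgeR). The annotation gives this gene (Gene ID 396926, chr10:25202360-25208058) the synonym CTSL, and another gene that carries the symbol CTSL was in none of the tables. CTSH (1.38, SE 0.32, FDR 0.013) and CTSS (0.52, SE 0.16, FDR 0.042) missed the threshold of LE although their groups did not overlap. The lysosomal proteases CTSB (0.22, SE 0.19) and CTSD (−0.10, SE 0.16) were not called.

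PLAUR, listed in the LE table alone, had 5.64, 1.91, 3.88 and 3.51 CPM in control LE and 15.7, 10.1, 17.9 and 10.45 CPM in pregnant LE, from 7 to 15 and 13 to 58 counts (log2 FC 1.85, SE 0.39, FDR 0.0077, edgeR). Its ligand PLAU had a log2 FC of 0.22 (SE 0.40) and was not called. ANPEP had the lowest log2 FC of the 55 genes in LE with −1.84 (SE 0.53, FDR 0.030, edgeR) and was not called. It had 26.7, 4.90, 16.2 and 8.90 CPM in control and 3.61, 3.19, 3.70 and 4.75 CPM in pregnant LE, the latter from 3 to 15 counts, and the groups did not overlap.

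**Figure D2:**
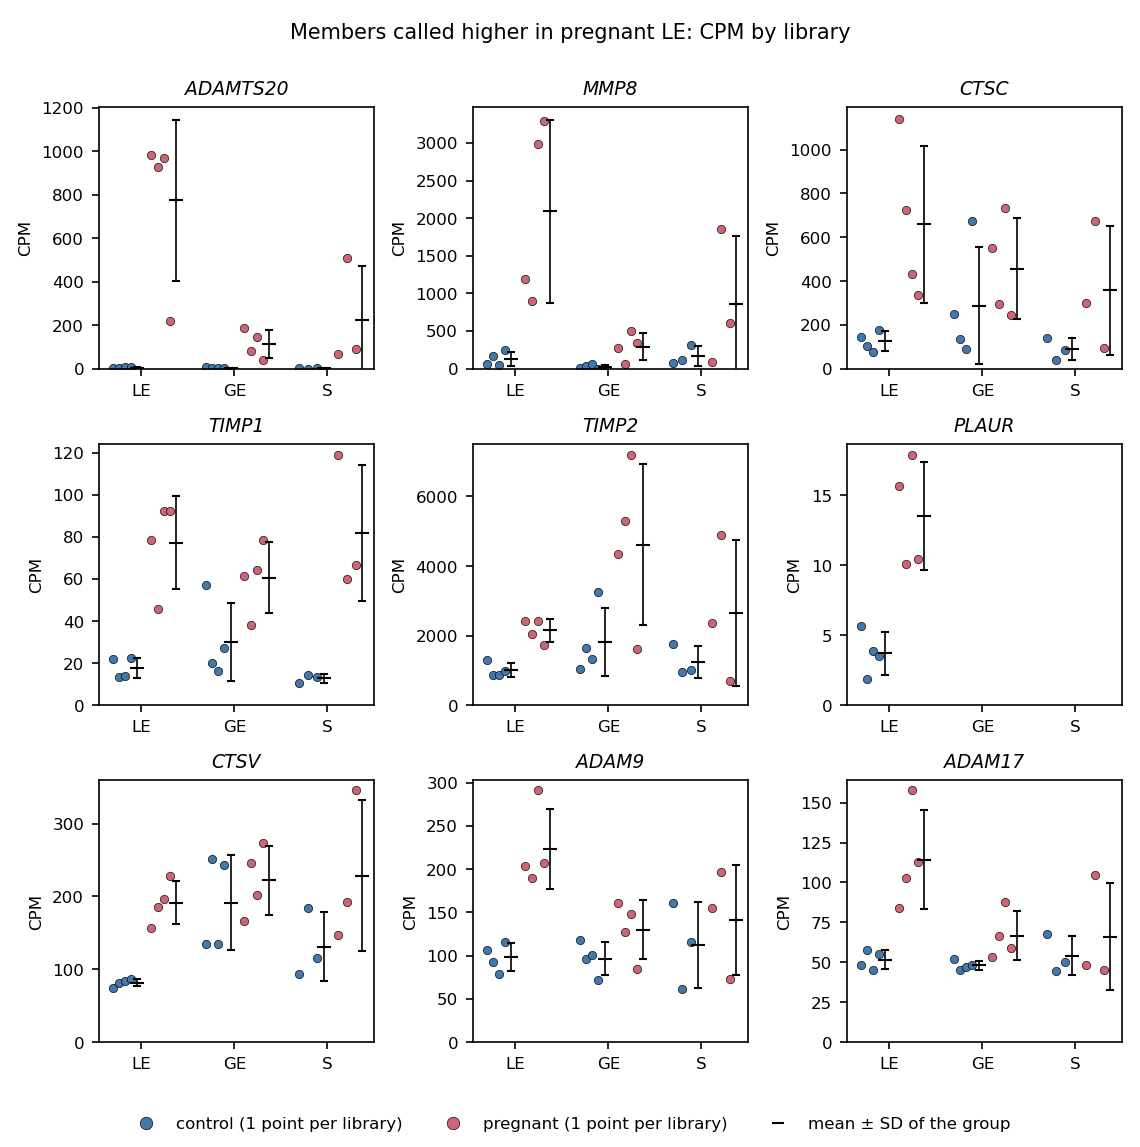
CPM of the 9 genes called in LE, with 1 point per library, for control and pregnant libraries of LE, GE and S, and the mean ± SD of each group beside the points (bars that would pass below 0 are cut there). In LE all pregnant points lie above all control points in each of the 9 panels, with ADAMTS20 at most at 7.06 CPM in the control LE libraries; PLAUR was listed for LE alone.

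Leaving out single gilts changed the number of called genes in LE. Without gilt 04 there were 4 and without gilt 06 there were 5, and without gilt 13 there were 6. Of all 11415 genes, 1146 were called with all gilts, and 588, 627 and 678 were called without gilts 04, 06 and 13. ADAMTS20, MMP8, TIMP1 and CTSV were called in each of the 8 fits with 1 gilt left out, ADAM9 in 7, CTSC in 6, ADAM17 and TIMP2 in 4, and PLAUR in 1. Without gilt 01, whose LE library was fibroblast-rich and the shallowest of all, 9 genes were called, 8 of them shared with the fit of all libraries (CTSH in place of PLAUR).

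The upstream sequences are shown for ADAMTS20 and MMP8, which had the largest changes, and for PLAUR, the only called gene with a match to the AP-1 motif. They are the 250 bases before the annotated gene start in Sscrofa11.1, read 5′ to 3′ on the strand of the gene. Capitals mark matches, on either strand, to the AP-1 motif, spelled TGANTCA, to the CCAAT box and to the GC box, spelled GGGCGG.
ADAMTS20, chr5:74672704-74672953, minus strand: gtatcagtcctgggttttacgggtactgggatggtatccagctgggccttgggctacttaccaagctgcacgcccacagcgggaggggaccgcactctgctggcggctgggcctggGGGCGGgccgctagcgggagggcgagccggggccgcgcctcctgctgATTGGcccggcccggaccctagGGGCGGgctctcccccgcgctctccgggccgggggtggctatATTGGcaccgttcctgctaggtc
MMP8, chr9:33397638-33397887, minus strand: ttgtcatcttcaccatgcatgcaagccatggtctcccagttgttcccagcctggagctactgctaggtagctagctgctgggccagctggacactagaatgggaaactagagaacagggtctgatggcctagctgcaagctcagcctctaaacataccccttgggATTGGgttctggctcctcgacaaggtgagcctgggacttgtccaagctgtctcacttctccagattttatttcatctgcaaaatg
PLAUR, chr6:50505454-50505703, minus strand: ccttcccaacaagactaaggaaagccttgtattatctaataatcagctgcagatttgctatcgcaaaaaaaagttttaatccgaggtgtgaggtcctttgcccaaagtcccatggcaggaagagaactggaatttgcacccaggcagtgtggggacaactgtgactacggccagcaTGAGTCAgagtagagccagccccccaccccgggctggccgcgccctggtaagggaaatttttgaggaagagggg
The ADAMTS20 sequence was rich in G and C (70.8%) with 2 GC boxes and 2 CCAAT boxes, whereas those of MMP8 and PLAUR had 51.6% each and no GC box. For comparison, the median over 12280 listed genes was 60.4%. The AP-1 match of PLAUR began 74 bases before the gene start. Among the 9 called genes, 1 had an AP-1 match, 5 a CCAAT box and 5 a GC box, compared with 4.1%, 32.6% and 56.0% of the 12280 upstream sequences. The NF-kB consensus, TTCNNNGAA (STAT), the core of the interferon response element and the TATA box were found in none of the 9, and in 0.383%, 5.69%, 2.66% and 7.25% of all sequences. A match is a string of letters here and not a known binding site. The annotated gene starts were not checked. That of TIMP1, 1 of the 9 genes, lies 1 base before its coding sequence, so that its 250 bases may not be those before the start of transcription.

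In GE, 1 of the 58 listed genes was DE in pregnant against control gilts (unadjusted p below 0.0021, the cut-off of the study for GE and S), and 0.694% of all 11676 genes were called, 0.574% of all genes as higher. This gene was ADAMTS20 with 5.68, 0.994, 3.13 and 0.821 CPM in control GE and 185, 79.4, 146 and 40.8 CPM in pregnant GE. The groups did not overlap, the control libraries held 2 to 14 counts, and the log2 FC was 5.39 (SE 0.71, FDR 0.081, edgeR). ADAMTS20 was called in each of the 8 fits with 1 gilt left out (log2 FC 5.04 to 6.02, the highest without gilt 02), and without the 2 fibroblast-rich GE libraries. The medians of the log2 FC were −0.015 over the 58 genes, with 28 above 0, and −0.02 over all genes. The sign of the median over the 58 genes changed with the gilt left out. It was −0.26 with 18 above 0 without gilt 01 and 0.32 with 41 above 0 without gilt 02. When both fibroblast-rich libraries were left out it was 0.06 with 32 above 0. Leaving out gilts 03, 05 and 14 in turn gave 0.04, 0.02 and 0.06, and leaving out gilts 04, 06 and 13 gave −0.06, −0.13 and −0.14.

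The other 8 genes called in LE gave the following in GE. MMP8 had 8.92, 35.8, 58.9 and 0.274 CPM in control GE and 270, 65.6, 496 and 335 CPM in pregnant GE, which did not overlap, but the log2 FC of 3.51 had an SE of 1.08 (FDR 0.44, edgeR). TIMP2 reached 4615 ± 2313 CPM in pregnant and 1823 ± 986 CPM in control GE (SD, n = 4; log2 FC 1.34, SE 0.51, FDR 0.54, edgeR). TIMP1 had 57.2, 19.9, 16.5 and 27.4 CPM in control GE, the highest value being that of the fibroblast-rich library of gilt 02, and 61.3, 38.1, 64.2 and 78.7 CPM in pregnant GE (log2 FC 0.996, SE 0.42, FDR 0.60, edgeR). Without gilt 02, TIMP1 was called in GE (log2 FC 1.52, SE 0.31, FDR 0.20, edgeR). The log2 FCs of ADAM9, ADAM17, CTSC and CTSV were 0.43 (SE 0.25), 0.47 (SE 0.20), 0.66 (SE 0.63) and 0.22 (SE 0.27), and PLAUR was not listed. All pregnant GE libraries were above all control GE libraries for 3 of the 58 genes (ADAMTS20, MMP8 and ADAM17), compared with 2.81% of all genes, and below them for 1 (ADAMTS6), compared with 2.16%.

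In S, 2 of the 48 listed genes were DE (unadjusted p below 0.0021), and both were higher in pregnant S. Of all 11532 genes, 1.47% were called, 0.425% as higher and 1.05% as lower. TIMP1 had 10.5, 14.2 and 13.6 CPM in control S and 119, 59.9 and 66.8 CPM in pregnant S, with the highest value in the fibroblast-rich library of gilt 01 (log2 FC 2.71, SE 0.36, FDR 0.047, edgeR). Without gilt 01 the log2 FC was 2.29 (SE 0.27, FDR 0.054) and TIMP1 was still called. ADAMTS20 had 1.56, 0.303 and 3.31 CPM in control S, from 1 to 9 counts, and 67.5, 509.6 and 89.5 CPM in pregnant S (log2 FC 7.04, SE 1.14, FDR 0.082, edgeR). Here the library of gilt 01 was the lowest pregnant one, and without it the log2 FC was 7.44 (SE 1.02). The size of the difference moved with single libraries, from 5.55 without gilt 05 to 7.94 without gilt 13, and ADAMTS20 was called in both of these fits. Without gilt 02, ADAMTS20 was no longer called (log2 FC 7.002, SE 1.498, FDR 0.37, edgeR).

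The median log2 FC in S was 0.74 over the 48 genes and 0.08 over all genes, and 39 of the 48 were above 0. Without gilt 01 this median fell to 0.22 and 30 of the 48 were above 0. The library of gilt 01 was the highest of the 3 pregnant S libraries for 26 of the 48 genes (54.2%), against 31.9% of all genes in the S table. Among them was MMP2, a gelatinase, with 154, 259 and 306 CPM in control S and 1850, 246 and 278 CPM in pregnant S. ADAMTS5, a proteoglycan-cleaving protease, had 19.1, 31.5 and 15.1 CPM in control S and 290, 90.7 and 53.9 CPM in pregnant S, which did not overlap, and it was not called (log2 FC 2.77, SE 0.68, FDR 0.18, edgeR). Without gilt 01 its log2 FC was 1.71 (SE 0.40). All pregnant S libraries were above all control S libraries for 4 of the 48 genes (ADAMTS20, TIMP1, ADAMTS5 and ANPEP), compared with 7.26% of all genes, and below them for 1 (CTSF), compared with 10.1%.

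High values in the fibroblast-rich libraries were also seen in LE and GE. The library of gilt 01 was the highest pregnant library for 31 of 55 genes in LE (56.4%, against 29.1% of all genes) and for 34 of 58 in GE (58.6%, against 28.6%), and the library of gilt 02 was the highest control GE library for 33 of 58 (56.9%, against 30.0%).

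**Figure D3:**
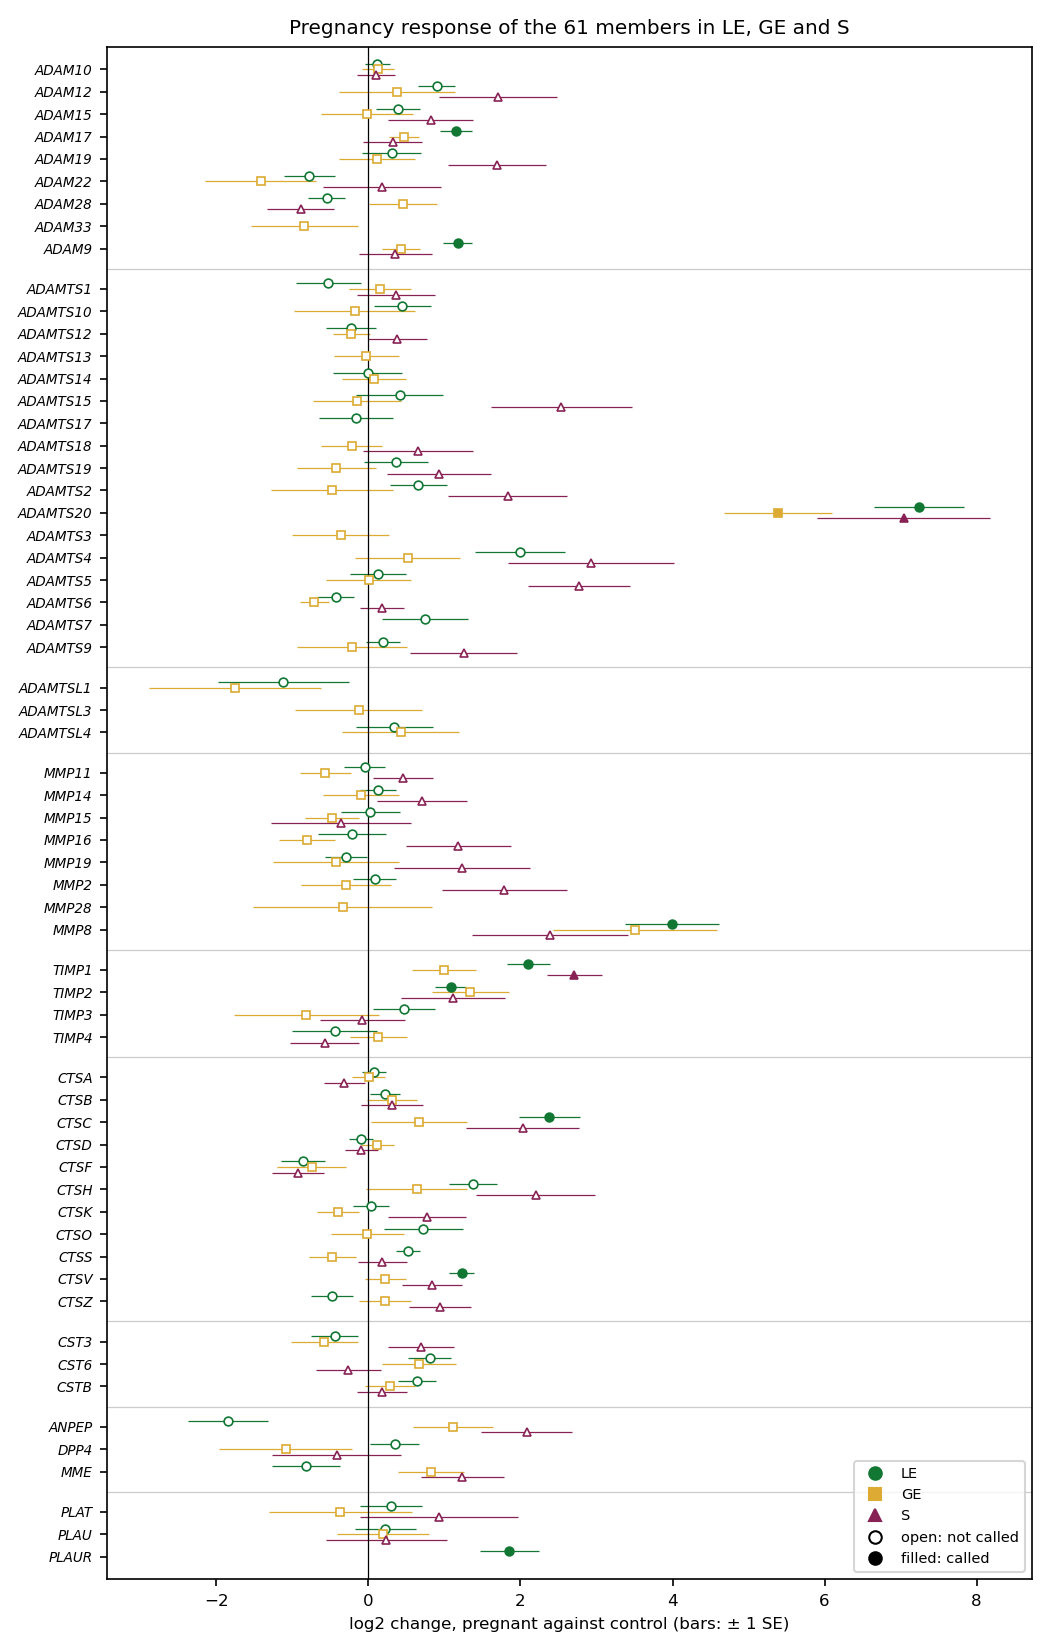
Log2 FC of pregnant against control with ± 1 SE for each of the 61 genes in LE (circles), GE (squares) and S (triangles), sorted by role, with filled symbols for called genes. ADAMTS20 is called in all 3 cell types with log2 FCs of 7.24, 5.39 and 7.04, TIMP1 in LE and S, and the S estimates have the longest error bars for many of the genes.

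Whether the response to pregnancy differed between the cell types was tested with interaction terms for the 47 genes listed in all tables (edgeR, gilt as block, FDR below 0.01). None of the 47 was called for GE against LE, where 0.395% of 10643 genes were called, for S against LE (0.0188%) or for S against GE (0.0%). At an unadjusted p below 0.05 there were 10, 9 and 13 of the 47 genes, compared with 17.3%, 15.2% and 9.9% of all genes. The Wald test of DESeq2 called none for GE against LE, ADAMTS5 and ANPEP for S against LE, and ADAMTS5 for S against GE. In the GE and LE comparison the smallest FDRs were those of CTSS (difference of the log2 FCs −1.065, SE 0.27, FDR 0.053) and CTSV (−0.96, SE 0.26, FDR 0.067), both with the smaller log2 FC in GE. The calls of CTSC, CTSV, ADAM9, ADAM17, TIMP2 and MMP8 in LE alone were therefore not shown to be particular to LE. Over the 47 genes the median difference of the log2 FCs was −0.37 for GE against LE, 0.16 for S against LE and 0.66 for S against GE. Without the 4 fibroblast-rich libraries these medians were −0.10, −0.02 and 0.05, and again 0 of the 47 genes were called in each contrast. For MMP8 the difference of the log2 FCs was −0.46 (SE 1.28) and for TIMP2 it was 0.04 (SE 0.54), so that large differences in either direction could not be resolved for MMP8.

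Differences between GE and LE, averaged over both states, were called for 16 of the 47 genes (edgeR, gilt as block, FDR below 0.01). Of these, 6 were higher in GE, compared with 10.4% of all 10643 genes, and 10 were lower in GE, again compared with 10.4% of all genes. Of the epithelial markers, KRT7 (log2 difference −2.23, SE 0.36) and KRT8 (−0.85, SE 0.18) were called lower in GE and KRT19 (0.93, SE 0.24) higher. The part of cell composition in the differences between GE and LE was not tested. Within the control gilts 3 of the 47 genes were called (196 of all 10643 genes), and within the pregnant gilts 7 (1680 of all). Without the block by gilt 7 of the 16 were called, namely ANPEP, ADAMTS5, MME, CTSS, PLAU, CTSD and MMP8. In each of the 8 fits with 1 gilt left out, 5 genes were called (ANPEP, ADAMTS5, MME, CTSV and CTSS), and the number of called genes was between 5 (without gilt 04) and 14 (without gilt 02). Without gilts 03 and 05 in turn there were 6 called genes each, without gilt 14 there were 8, and without gilts 01 and 13 there were 10 each. Without the 4 fibroblast-rich libraries 14 genes were called, of which 9 were among the 16, and MMP8, DPP4, ADAM17, CTSA, CTSD, CTSZ and ADAMTS15 were not called. Of all 10643 genes, 2211 were called with all libraries and the block, 1505 without the block and 2383 without these 4 libraries. Leaving out gilts 04 and 02 in turn gave 1223 and 2315. A fit of the LE and GE tables alone called 8 of the 47 genes (15.2% of the 10851 genes listed in both), namely ANPEP, ADAMTS5, MME, CTSV, ADAMTS15, CTSS, PLAU and ADAMTS20, all among the 16.

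ANPEP, the aminopeptidase N of brush borders, differed most. Its levels in LE are given above, and it had 47.04, 153, 140.5 and 166 CPM in control GE and 331, 168, 484 and 102 CPM in pregnant GE, all above every LE library (GE against LE log2 difference 4.64, SE 0.45, FDR 4.8e-05, edgeR). Within the control gilts the difference was 3.41 (SE 0.59) and within the pregnant gilts 5.87 (SE 0.69), and the difference between these did not pass the test (2.45, SE 0.88, FDR 0.16). ANPEP was also the only 1 of the 47 genes called between S and LE (log2 difference 3.38, SE 0.47, FDR 0.0024, edgeR), where 1.69% of all genes were called. In S it had 71.4, 38.8 and 13.97 CPM in control and 182, 233 and 99.3 CPM in pregnant libraries. This call was lost without gilt 01, without gilt 04 and without gilt 05, with log2 differences between 3.21 and 3.63 in the fits with 1 gilt left out. Without the 4 fibroblast-rich libraries ANPEP was again the single call. A fit of the LE and S tables alone called ANPEP (3.46, SE 0.33, FDR 0.0027) and also MME (1.41, SE 0.21, FDR 0.0090, edgeR), 1.36% of the 10890 genes listed in both being called.

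The neutral endopeptidase MME had 64.3, 58.0, 84.0 and 45.9 CPM in control LE and 12.0, 16.5, 38.3 and 68.7 CPM in pregnant LE. In GE it had 46.6, 164, 114 and 178 CPM in control and 127, 326, 160.5 and 275 CPM in pregnant libraries. The control GE library of gilt 02 was the only 1 of the GE libraries within the LE range (log2 difference 1.88, SE 0.31, FDR 0.00055, edgeR). Within the control gilts the difference of MME was 0.94 (SE 0.42) and not called, and within the pregnant gilts it was 2.81 (SE 0.45) and called. The difference between these did not pass the test (1.87, SE 0.61, FDR 0.12). DPP4, the third membrane peptidase, went the other way with 8.43 to 19.3 CPM (median 13.6) in LE and 0 to 10.4 CPM (median 4.89) in GE (log2 difference −1.53, SE 0.40, FDR 0.0085, edgeR). It was called in 2 of the 8 fits with 1 gilt left out. Its pregnant GE library of gilt 14 had a count of 0, which allows up to 3 counts or 1.06 CPM.

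ADAMTS5 had 15.2 to 54.2 CPM in LE (median 25.1) and 36.1 to 234 CPM in GE (median 106), with a log2 difference of 1.96 (SE 0.23, FDR 9.9e-05, edgeR). ADAMTS1, its neighbour on chromosome 13 at a distance of 67061 bases, had a log2 difference of 0.59 (SE 0.25, FDR 0.078) and was not called. ADAMTS15 (1.25, SE 0.32), CTSZ (0.76, SE 0.20) and CTSV (0.68, SE 0.13) were the other genes called higher in GE. For CTSV the difference was 1.16 (SE 0.19) and called within the control gilts, and 0.20 (SE 0.19) and not called within the pregnant gilts.

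Among the genes lower in GE, CTSS, an elastin-degrading cathepsin of antigen-presenting cells, had 52.3, 59.3, 54.3 and 63.0 CPM in control LE and 83.1, 67.4, 90.4 and 89.0 CPM in pregnant LE. It had 44.6, 28.8, 37.0 and 33.1 CPM in control GE and 24.3, 15.3, 40.05 and 23.4 CPM in pregnant GE, so that all GE libraries were below all LE libraries (log2 difference −1.21, SE 0.14, FDR 8.1e-05, edgeR). CTSS was chosen for values by library after these were seen. The collagen-degrading CTSK lies 10303 bases from CTSS on chromosome 4 and had a log2 difference of 0.14. PLAU had 30.7 to 86.0 CPM in LE (median 44.5) and 3.83 to 28.4 CPM in GE (median 14.5), with no overlap (−1.795, SE 0.38, FDR 0.0028, edgeR), and it was called in 5 of the 8 fits with 1 gilt left out. TIMP3, the inhibitor that stays bound to the matrix, had 739 to 3095 CPM in LE (median 1121) and 52.8 to 1469 CPM in GE (median 395), which overlapped (−1.69, SE 0.41, FDR 0.0058, edgeR), and it was called in 3 of these fits.

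MMP8 and ADAMTS20 were lower in GE than in LE as well, by log2 differences of −2.69 (SE 0.65, FDR 0.0060) and −1.89 (SE 0.45, FDR 0.0057, edgeR). For ADAMTS20 the difference was −1.02 (SE 0.75) and not called within the control gilts, and −2.75 (SE 0.53) and called within the pregnant gilts. For MMP8 it was −2.46 (SE 0.98) and −2.92 (SE 0.87) in this order, and called in neither state. In the pregnant gilts the lowest LE libraries had 905 CPM of MMP8 and 217 CPM of ADAMTS20, and the highest GE libraries had 496 and 185 CPM. The membrane collagenase MMP14 (−0.98, SE 0.24), CTSA (−0.48, SE 0.11), CTSD (−0.49, SE 0.12) and ADAM17 (−0.44, SE 0.12) completed the 10 genes. For ADAM17 the difference was −0.10 (SE 0.16) and not called within the control gilts, and −0.77 (SE 0.16) and called within the pregnant gilts. With 1 gilt left out, MMP8 was called in 3 of 8 fits, ADAMTS20 in 2 and ADAM17 in 1, and in the voom fit neither ADAMTS20 nor ADAM17 was called and the difference of MMP8 was −3.34. CTSA shares 28.5% of its exon bases with NEURL2, so that its counts are uncertain.

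**Figure D4:**
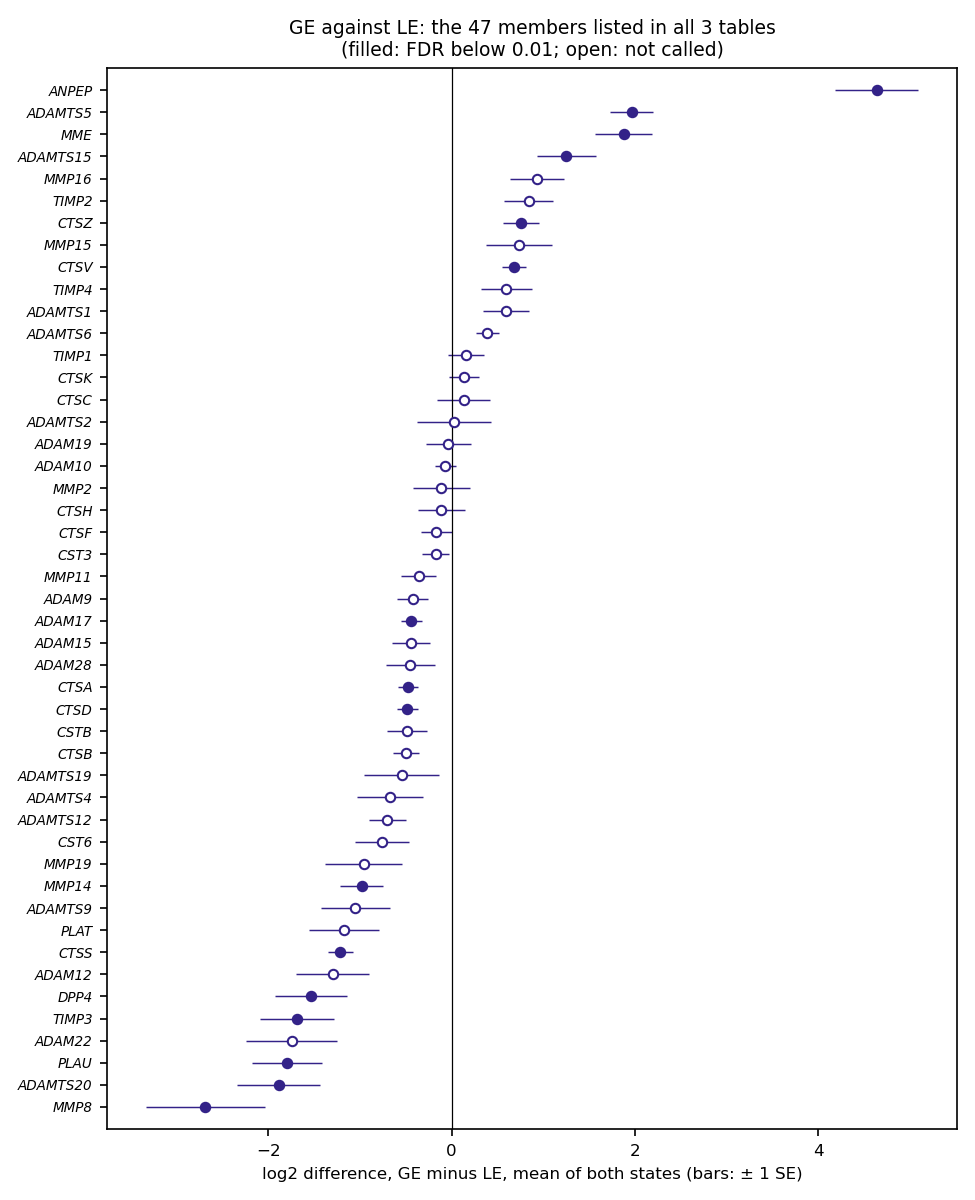
Log2 difference of GE minus LE, averaged over control and pregnant gilts, with ± 1 SE for the 47 genes listed in all 3 tables, sorted by the difference, with filled circles for the 16 called genes. ANPEP lies apart at 4.64 on the side of GE, and MMP8 has the lowest value at −2.69.

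No gene at all was called between S and GE (0.0% of 10643 genes), and hence 0 of the 47, of which 11 had an unadjusted p below 0.05 (13.2% of all genes). The Wald test of DESeq2 called ADAMTS5, lower in S. In the contrast of S and LE the 46 genes that were not called had log2 differences in the fit of all 3 tables down to −1.68, the value of ADAMTS20 (SE 0.54, FDR 0.068, edgeR).

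ADAMTS18, known from eye and reproductive tract development, was listed in GE and S and not in LE, so that its level in LE was not analysed here. It had 211, 595, 257 and 732 CPM in control GE and 254, 413, 479 and 385 CPM in pregnant GE. In S it had 63.6, 400 and 77.6 CPM in control and 134, 344 and 343 CPM in pregnant libraries. Its log2 difference of S against GE was −1.16 (SE 0.32, FDR 0.28, edgeR) and its pregnancy response was −0.22 (SE 0.41) in GE and 0.65 (SE 0.73) in S, none of which was called. As regards FOXA2, the control S libraries of gilts 02 and 13 had 11.3 and 12.1 CPM of FOXA2 and the lowest ADAMTS18 levels. The control GE library of gilt 02 had the lowest values of both genes in GE. The S and GE libraries of gilt 14 had the most FOXA2 (133 and 109 CPM), but their ADAMTS18 levels of 343 and 385 CPM were not the highest. A link between the 2 genes was not tested. ADAMTS18 (Gene ID 102167408) lies at chr6:10488504-10652508 on the plus strand. Of the 6 genes listed in exactly 2 tables (ADAMTS10, ADAMTS14, ADAMTS18, ADAMTSL1, ADAMTSL4 and CTSO), none was called between the cell types in fits of the 2 tables that list them.

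**Figure D5:**
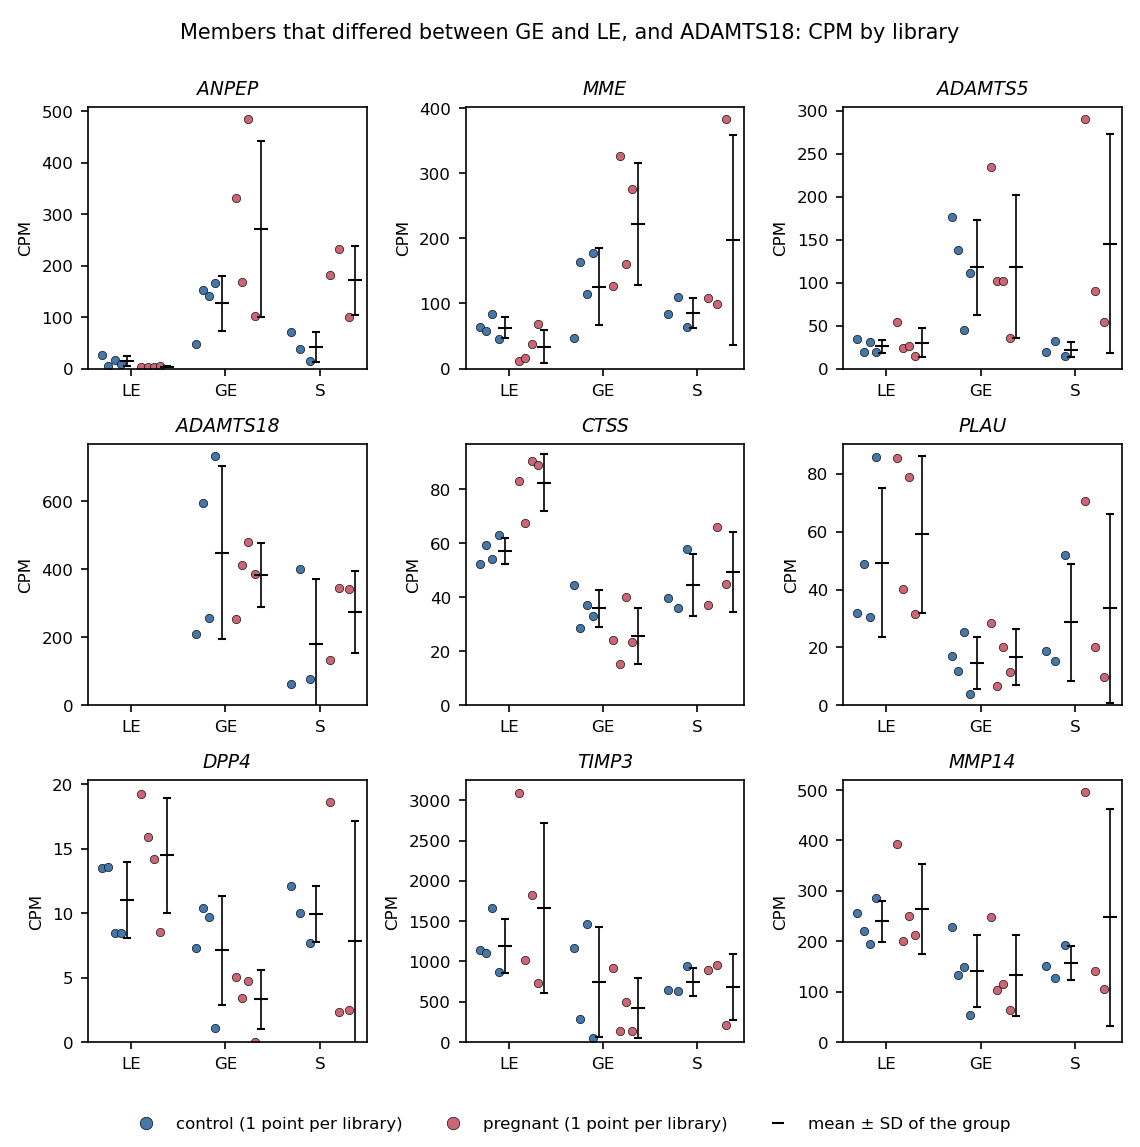
CPM by library of 8 genes that differed between GE and LE and of ADAMTS18, with 1 point per library for control and pregnant LE, GE and S and the mean ± SD of each group beside the points (bars that would pass below 0 are cut there). ANPEP and MME are high in GE, CTSS and PLAU are high in LE, and ADAMTS18, not listed in LE, spans 211 to 732 CPM in GE.

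The levels of different genes were compared only as mean CPM per kb of exon, averaged over control and pregnant libraries, and their order is a description without a test. TIMP2 had the highest such mean in every cell type, with 428 CPM per kb in LE, 871 in GE and 527 in S. MMP8 (315) and TIMP3 (309) followed in LE, where the mean of MMP8 was set by the pregnant libraries. MMP8 had 593 CPM per kb in pregnant LE, above the 582 of TIMP2, and 37.1 in control LE, where TIMP2 had 273. ADAMTS1 (181), MMP2 (171), CSTB (136) and CTSV (130) followed in GE. Among the MMPs, MMP2 led in GE (171, and 114 without the fibroblast-rich libraries). In S its mean of 167 was set by the fibroblast-rich library of gilt 01, without which MMP8 led with 198. In control S, however, MMP2 had 77.7 and MMP8 had 46.7 CPM per kb. The pregnant S libraries ranged from 90.0 to 1860 CPM of MMP8. Among the ADAMTS genes ADAMTS1 led in LE (123), GE and S (162). CTSB was the leading cathepsin over all LE libraries (97.5), but in pregnant LE CTSC (141) and CTSV (121) were above CTSB (105). CTSV led in GE and S (113), and CSTB, a cytosolic cystatin, led the cystatins in all 3 cell types. In the plasminogen activation group PLAU led in LE (22.8) and S (13.1) and PLAT in GE (10.7). For PLAT in GE, libraries ranged from 3.54 to 73.0 CPM with the highest value in the fibroblast-rich library of gilt 02, and without the fibroblast-rich libraries PLAU led in GE (5.57). ADAMTSL4, the leading ADAMTSL gene, had only 2.63 CPM per kb in LE and 2.44 in GE.

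Other genes of proteolysis were counted from lists of further inhibitors, activators and proteases. Of 10, 14 and 25 such genes listed in LE, 1 was called in pregnant against control, the brush border protease MEP1B, with a log2 FC of −3.89 (SE 0.72, FDR 0.0040, edgeR). Of all genes in LE, 6.33% were called higher and 3.71% lower. The inhibitor SLPI of leukocyte elastase was the only one called in GE (log2 FC 2.35, SE 0.48, FDR 0.22) and the only one in S (3.50, SE 0.73, FDR 0.13). The share of all genes called was 0.694% in GE and 1.47% in S. Between GE and LE, where 10.4% of all genes were called higher and 10.4% lower in GE, 2 of 9 inhibitors were higher in GE. These were SLPI (3.31, SE 0.56) and the MMP inhibitor RECK (1.20, SE 0.24). Of 14 activators, the proprotein convertase FURIN was higher in GE (1.27, SE 0.24) and 4 were lower (PCSK7, RHBDF2, TSPAN14 and TSPAN17, between −0.66 and −0.83). Of 23 further proteases, 5 were higher in GE, led by MEP1B with 6.64 (SE 0.82), and 3 were lower (TLL2, TMPRSS4 and ST14, between −1.115 and −2.99). MEP1B was also called higher in S than in LE (4.84, SE 0.83), the same directions as for ANPEP.

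The 25 genes with matching symbols that were in none of the tables included MMP1, MMP3, MMP7, MMP9, MMP12 and MMP13, ADAM8, ADAMTS8 and CTSW. They were not analysed here. Exon bases shared with a gene at the same place make ADAM12 (47.3% with FANK1 on the opposite strand), ADAMTS13 (70.6% with CACFD1), ADAMTS7 (23.6% with TBC1D2B) and CTSK (15.1% with ARNT) uncertain, since the use of strand in counting is not stated in the sources used here.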

How the data were processed

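RNA of LE, GE and S from 8 gilts (22 libraries) was sequenced by the authors. According to their methods, adapters were clipped, 5 bases were removed from the read starts, reads were mapped with Hisat2 to Sscrofa11.1, PCR duplicates were removed by random bases of the adapter, and genes were filtered by CPM. The deposited values are raw counts per NCBI gene, in 1 table per cell type. The counter, its use of strand and the CPM limit are not given in the sources used here. Genes absent from a table were not taken as 0. All 12401 gene IDs matched the NCBI annotation.

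From the counts, each cell type was fitted in edgeR 4.0.16 (R 4.3.3) over all listed genes with TMM and the quasi-likelihood test. Genes were called at an FDR below 0.01 in LE and an unadjusted p below 0.0021 in GE and S, the cut-offs of the study. There, 0.0021 was the p value that matched this FDR in its own LE fit. In the LE fit used here, an FDR of 0.0098 went with a p of 0.00097 (CDH1, edgeR quasi-likelihood test). The limit in GE and S was therefore looser than in LE, and counts of called genes are not matched across the cell types. Cell types and interactions were tested in a joint fit of the 10643 genes in all tables, with the gilt as block (FDR below 0.01). Genes listed in exactly 2 tables, such as ADAMTS18, were tested in the same way in a fit of all genes listed in both. The labels give the same number to libraries of the same animal, and deviations from group means correlated above 0.1 in 6 of 8 gilts for LE with GE, 6 of 6 for LE with S and 5 of 6 for GE with S. SE is the log2 FC divided by the root of F. CPM use TMM over the 10643 genes, and 3 counts are the floor. Totals per library were 893912 to 4020796, and precision at low counts follows from this.

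Genes and lists were chosen with earlier results of these data known. Values in every library are given for genes called in pregnant against control, for up to 8 genes per contrast of cell types with the largest called differences, for ADAMTS18 and ADAMTS20, and for the leader of each role by CPM per kb, with ranges where groups were joined. CTSS, given in every library, lies outside this rule. Alternatives were RLE or library size alone, at least 10 counts in every library, filterByExpr, DESeq2 1.42.0, voom of limma 3.58.1 with a random gilt block, no block, an FDR of 0.05, each gilt left out, only gilts with 3 cell types, and, added after the data were seen, leaving out the 4 fibroblast-rich libraries and fitting the genes of all 3 tables with the 2 tables compared alone. Fits were tested on simulated data. Replicates are separate gilts.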

Additional observations from a re-analysis of the deposited data

Results flagged for a closer look

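Among 88 groups of 4 libraries (LE and GE, of the 23 genes chosen by the rule for values by library; the other genes named were not screened), 4 had a library that lay apart from the other 3 by Dixon's ratio of gap to range (95% critical value for 4 values), which chance flags in about 1 in 20 groups. In pregnant LE, ADAMTS20 was low in gilt 14 (217 CPM, the others 925 to 982) and ADAM9 was high in gilt 05 (291 CPM, the others 190 to 207). In pregnant GE, CSTB was high in gilt 14 (147 CPM, the others 58.8 to 64.2) and MMP2 was high in the fibroblast-rich library of gilt 01 (985 CPM, the others 266 to 353).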

How the results depend on the processing

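None of the 23 called differences of the genes given by library changed sign under the alternatives run for it. As these differences were taken because they were called in the same data, a kept sign says little. The call was kept in 268 of these alternative fits and lost in 74. The count of called genes in LE (9) was 14 at an FDR below 0.05 and 4 to 12 with 1 gilt left out. Over all genes the LE count (1146) was 2556 and 588 to 1643 in these fits. In GE (1) the count was 0 at an FDR below 0.05 and 3 with DESeq2. It was 0 with at least 10 counts in every library, where ADAMTS20 is no longer tested, and 1 to 2 with 1 gilt left out. All genes in GE (81) gave 2, 241, 50 and 42 to 100 in this order. In S (2) the count was 1 at an FDR below 0.05, 4 with DESeq2, 1 with at least 10 counts, and 1 to 3 with 1 gilt left out. All genes in S (170) gave 29, 512, 122 and 65 to 221 in this order. For GE against LE (16) the count was 7 without the replicate block and 8 with only the gilts that had all 3 cell types. It was 10 with at least 10 counts (33 of the 47 genes tested) and 25 at an FDR below 0.05. The fit of these 2 tables alone gave 8, and leaving out 1 gilt gave 5 to 14. All genes (2211) gave 1505, 1427, 1714 (8212 genes tested), 3748, 1645 and 1223 to 2315 in this order. For S against LE (1) the count was 0 with at least 10 counts, 4 with DESeq2 and 3 at an FDR below 0.05. The fit of these 2 tables alone gave 2, and leaving out 1 gilt gave 0 to 1. All genes (180) gave 59, 762, 854, 148 and 0 to 192 in this order. For S against GE (0) the count was 1 with DESeq2 and 0 with 1 gilt left out, and all genes (0) gave 69 and 0 to 1. The interaction counts (0) were 2 for S against LE and 1 for S against GE with DESeq2, and 0 in all fits with 1 gilt left out. Of all genes, DESeq2 called 94 and 26 for these contrasts. For the counts of S against LE, S against GE and the interactions, leaving out the block by gilt changed no call, and 0 of the 6 genes listed in 2 tables were called with or without it. The causes of these changes were not tested, except where fewer genes or gilts enter the fit. With 3 or 4 libraries per group and control levels of ADAMTS20 and PLAUR of a few counts, the sizes of their changes are imprecise.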
